A study of Mus musculus with 8 samples.

Results

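Proteasome genes were examined in the left ventricle of mice without a working Nppb gene and of wild-type mice. Members were taken by symbol: every gene of the deposited table whose symbol begins with Psma, Psmb, Psmc or Psmd followed by a digit, pseudogenes left out. This gave 40 genes of 41128, of which 38 had a mean normalized count of at least 10 over the 8 samples and entered the test with 16590 genes in all. The 38 comprised 14 subunits of the core particle, 17 subunits of the cap, 3 inducible catalytic subunits of the immunoproteasome, 3 assembly chaperones and Psmc3ip. Just outside the minimum lay Psma8 with a mean of 6.17, and just inside it Psmb9 with 100.3, so no member was near the limit from above.

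The Nppb KO group held 4 left ventricles, from FVB mice of 8 to 12 weeks whose Nppb gene carries a CRISPR deletion in exon 2 and whose source label reads HOM. The wild-type group held 4 left ventricles from FVB mice of the same age range. The labels name no sex, and they do not say how many edited founders the mutants descend from. The breeding protocol also names Myh6-MerCreMer, nTnG and Sun1/sfGFP mice, but the genotype labels of these 8 samples give only Nppb KO or wild type. Brain natriuretic peptide, a hormone of loaded heart muscle, is made from the precursor that Nppb encodes. Total RNA was sequenced with a stranded kit, and the reads assigned to genes came to between 20284865 and 34742840 per library.

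The proteasome is the barrel-shaped protease that degrades proteins tagged with ubiquitin. Its 20S core is a stack of rings of alpha and beta subunits, with the cutting sites on beta subunits inside. The 19S cap sits on the ends of the core, binds and removes ubiquitin chains, and unfolds the substrate with a ring of ATPases. In heart muscle, whose cells rarely divide, the proteasome is a main route for turnover of contractile and regulatory proteins.

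Nppb averaged 3.003 ± 1.31 normalized counts in Nppb KO ventricles and 2983 ± 1170 in wild-type ventricles (SD, n = 4 each), so every library matched its genotype label. A normalized count is a read count divided by the library's size factor. Nppa, the neighbouring gene for atrial natriuretic peptide, averaged 3713 ± 83.3 in Nppb KO ventricles and 419.7 ± 140 in wild-type ventricles (SD, n = 4 each). Of the 10 cardiomyocyte markers all were tested, with 0 called, 0 estimates above 0 and a median of -0.04. Of the 5 atrial markers Myl7, Sln and Bmp10 stayed at or below 7.58 in every sample. Myl4 averaged 35.4 ± 10.6 in Nppb KO ventricles and 26.3 ± 8.62 in wild-type ventricles, and Dkk3 39.7 ± 14.4 in Nppb KO ventricles and 37 ± 11 in wild-type ventricles (SD, n = 4 each), with differences of 0.41 and 0.09 on the log2(normalized count + 1) scale and neither called.

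No proteasome gene passed the test between the genotypes, and the estimated differences were small. Of the 38 tested members, 0 were called at a Benjamini-Hochberg adjusted p under 0.05 by limma, against 0.0121% of all tested genes (2 of 16590). The smallest adjusted p of a member was 0.753. EdgeR and DESeq2 on the recovered reads also called 0 members, against 0.0121% and 0.139% of all tested genes, with smallest member adjusted p-values of 0.767 and 0.795. DESeq2 gave no adjusted p-value to 5 of the 38 members, Psmb8, Psmb9, Psmd9, Psmd10 and Psmc3ip. The same held for 8684 of the 16590 genes, and none of these could be called by DESeq2. Of the 32 members with an adjusted p-value in the authors' deposited table, 0 were under 0.05, against 0.37% of the 5939 genes with one. At an unadjusted p under 0.05, 1 of the 38 stood by limma, against 6.26% of all tested genes in either direction and 2.98% in the direction of this member, higher in Nppb KO, and 1 by edgeR and by DESeq2 (6.31% and 4.57% of all tested genes). In each tool this gene was Psmd14.

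The estimates, Nppb KO minus wild type on the log2(normalized count + 1) scale, ran from -0.07 to 0.14 over the 38 members with a median of 0.02, against a median of 0.002 over all tested genes. Of the 38, 26 were above 0 and 12 below, a share of 68.4% against 50.9% of all tested genes. Genes of similar abundance to the core and cap subunits, 4111 in number, were above 0 in 54.6% of cases with a median of 0.008. For the 31 core and cap subunits, no 95% interval reached beyond 11.8% lower or 19% higher, and 30 of these intervals included 0. The widest interval of the 38 was that of Psmb9 of the immunoproteasome, from 11.2% lower to 36.4% higher, and the next that of the chaperone Psmd10, from 12.2% lower to 26.2% higher.

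**Figure D1:**
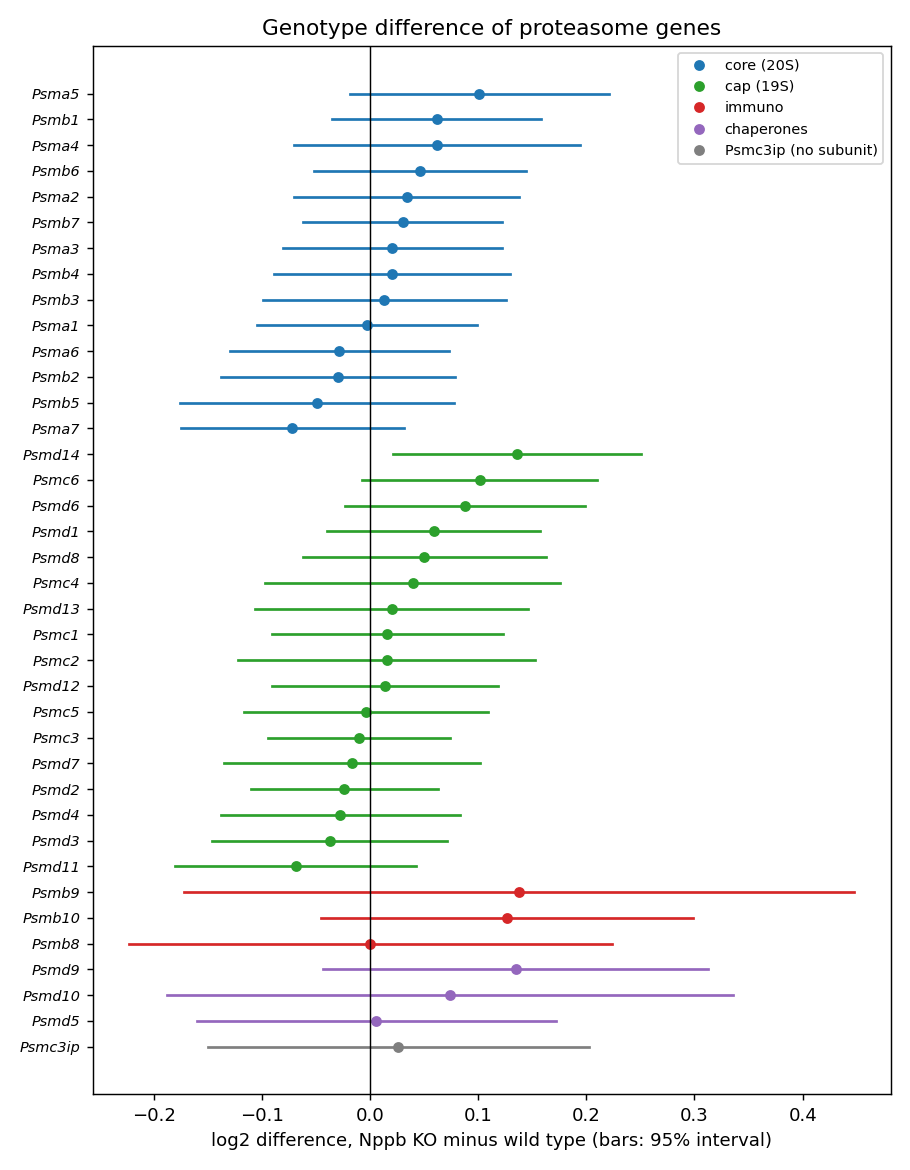
Difference of each of the 38 tested proteasome genes between Nppb KO and wild-type left ventricles on the log2 scale (points: limma estimate; bars: 95% interval; colours: class). The points lie between -0.07 and 0.14 and all bars but that of Psmd14 cross 0.

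In the core particle, 9 of 14 estimates were above 0 and 5 below, with a median of 0.02 and a range of -0.07 to 0.10. The 7 alpha subunits form the outer rings that gate entry to the chamber. Psma5 had the smallest unadjusted p among them. It read 649.6, 579, 632 and 633 in Nppb KO replicates 1 to 4, against 597, 570.0, 587 and 568 in wild-type replicates 1 to 4. Nppb KO replicates 1, 3 and 4 lay above every wild-type sample, and Nppb KO replicate 2 lay within the wild-type range. The difference was 0.10 (SE 0.06, limma unadjusted p = 0.0929, adjusted p = 0.808), or 7.26% with a 95% interval of -1.30% to 16.6%.

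Psma7, another alpha subunit, had the lowest estimate of the core. It read 1268, 1220.0, 1134 and 1158 in Nppb KO ventricles, against 1259, 1230.3, 1256 and 1273 in wild-type ventricles. The Nppb KO values spread over a wider range than the wild-type values and overlapped them, and the difference was -0.07 (SE 0.05, limma adjusted p = 0.827). Psma2 had the lowest level of the core per kb of the longest coding transcript. It read 1051, 975, 1057 and 1016 in Nppb KO ventricles, against 998, 984, 1045 and 976 in wild-type ventricles. The groups overlapped, with a difference of 0.03 (SE 0.05). Psma7 was picked here for its estimate, after the values were seen.

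The 4 structural beta subunits, which hold the inner rings together without cutting, had estimates from -0.03 to 0.06. Psmb1 had the smallest unadjusted p among them, with 1294, 1240.0, 1306 and 1324 in Nppb KO ventricles, against 1219.6, 1235, 1209.5 and 1282 in wild-type ventricles. As for Psma5, Nppb KO replicates 1, 3 and 4 lay above all wild-type samples and Nppb KO replicate 2 did not. The difference was 0.06 (SE 0.05, limma adjusted p = 0.848).

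The catalytic beta subunits of the constitutive core each bring a different cutting preference. Psmb6, the beta1 subunit that cuts after acidic residues, read 1598, 1500.2, 1474 and 1554 in Nppb KO ventricles, against 1451, 1444, 1548 and 1489 in wild-type ventricles. Psmb7, the beta2 subunit that cuts after basic residues, read 1931, 1850.0, 1890.5 and 1898 in Nppb KO ventricles, against 1799, 1942, 1851 and 1824 in wild-type ventricles. Psmb5, the beta5 subunit that cuts after hydrophobic residues and is the main target of the drug bortezomib, read 662, 648, 685 and 644 in Nppb KO ventricles, against 617, 682, 719.9 and 716 in wild-type ventricles. All 3 overlapped between the groups. Their differences were 0.05 (SE 0.05) for Psmb6, 0.03 (SE 0.04) for Psmb7 and -0.05 (SE 0.06) for Psmb5, and the limma adjusted p-values lay between 0.896 and 0.937.

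In the cap, 10 of 17 estimates were above 0 and 7 below, with a median of 0.02. The base of the cap holds 6 ATPases, Psmc1 to Psmc6, whose ring pulls the substrate into the core, and they had a median of 0.02 with estimates from -0.01 to 0.10. Psmc6 had the smallest unadjusted p of the ATPases and read 1513, 1382, 1450.0 and 1501 in Nppb KO ventricles, against 1327, 1406, 1439.7 and 1279 in wild-type ventricles. Only Nppb KO replicate 2 lay within the wild-type range, and the other 3 Nppb KO samples lay above it. The difference was 0.10 (SE 0.05, limma unadjusted p = 0.0651, adjusted p = 0.796). Psmc3, the cap gene with the highest level per kb, read 2453, 2493, 2395 and 2409 in Nppb KO ventricles, against 2461, 2441, 2456 and 2460.2 in wild-type ventricles. Its wild-type values lay close together inside the Nppb KO range, with a difference of -0.01 (SE 0.04).

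The non-ATPase subunits of the base, Psmd1, Psmd2 and Psmd4, include the scaffold proteins and a ubiquitin receptor. Psmd1, a scaffold subunit, read 2053, 1982, 1911 and 2068 in Nppb KO ventricles, against 1917, 1849, 2037 and 1891 in wild-type ventricles. The groups overlapped, and the difference was 0.06 (SE 0.05, limma adjusted p = 0.858). Psmd2, the other scaffold, and Psmd4, the ubiquitin receptor, had estimates of -0.02 and -0.03.

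The lid of the cap holds 8 of the tested subunits, among them Psmd14, the metalloprotease that cuts ubiquitin chains off the substrate as it enters. Psmd14 (ENSMUSG00000026914, forward strand of chromosome 2 from 61711694 to 61800376 in mm10) read 689, 669, 713 and 718 in Nppb KO ventricles, against 616, 663, 644 and 614 in wild-type ventricles. Every Nppb KO sample lay above every wild-type sample, the gap between Nppb KO replicate 2 at 669 and wild-type replicate 2 at 663 being narrow. Of the 38 members Psmd14 was the only one whose groups did not overlap, against 3.76% of all tested genes in either direction and 2.03% with the Nppb KO samples higher. The difference was 0.14 (SE 0.05), or 9.89% with a 95% interval of 1.5% to 19%, at a limma unadjusted p of 0.0228 (adjusted p = 0.753). For Psmd14 the log2 ratio of wild type over knockout stands at -0.14 in the authors' deposited table (adjusted p = 0.503).

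Psmd11, a structural lid subunit and the cap gene with the lowest level per kb, read 834, 766, 787 and 792 in Nppb KO ventricles, against 861, 784, 854 and 835 in wild-type ventricles. The groups overlapped, with a difference of -0.07 (SE 0.05, limma adjusted p = 0.852). The other 6 lid genes, Psmd3, Psmd6, Psmd7, Psmd8, Psmd12 and Psmd13, had estimates from -0.04 to 0.09.

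**Figure D2:**
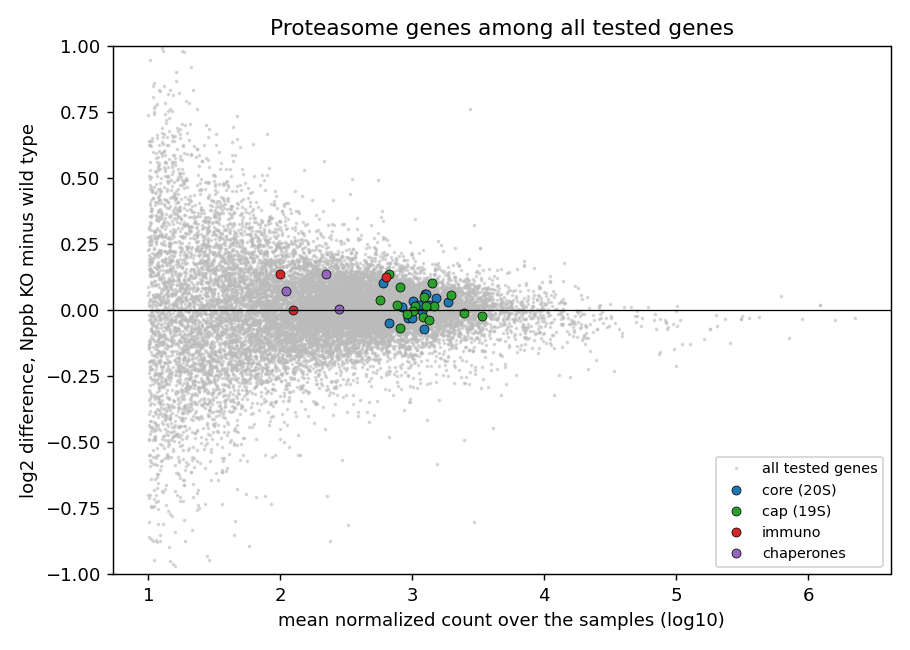
Log2 difference between Nppb KO and wild-type left ventricles against mean normalized count (log10) for all tested genes (grey) and for the proteasome classes (colours); 25 genes beyond 1 on the log2 scale in either direction lie outside the plotted range. The core and cap genes gather close to 0 at means of 572 to 3395.

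For the cap as a whole, the spread between ventricles exceeded the difference between genotypes. Each sample's deviation from the mean of all samples was averaged over the genes of a class on the log2 scale. For the 17 cap genes the average was 0.07, -0.03, -0.04 and 0.05 in Nppb KO replicates 1 to 4, against -8.14e-05, -0.01, 0.01 and -0.04 in wild-type replicates 1 to 4. In Nppb KO replicate 1 all 17 cap genes lay above their own means, whereas in Nppb KO replicates 2 and 3 only 5 and 4 did. The genotype means of the cap score were 0.01 ± 0.05 in Nppb KO and -0.01 ± 0.02 in wild type (SD, n = 4 each), a difference of 0.02 inside the spread of the Nppb KO samples.

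As with the cap, the core average stood above 0 in Nppb KO replicates 1 and 4 and below it in Nppb KO replicates 2 and 3. It was 0.03, -0.03, -0.01 and 0.04 in Nppb KO ventricles, against -0.03, 0.01, 0.007 and -0.02 in wild-type ventricles. Nppb KO replicate 2, where 1 of 14 core genes lay above its own mean, and Nppb KO replicate 4, where 11 did, were the lowest and the highest of all samples. The genotype difference of the core score was 0.01, smaller than the SD of 0.03 in Nppb KO and of 0.02 in wild type. Core and cap values of a sample share one library and one size factor, and their part in this was not tested.

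**Figure D3:**
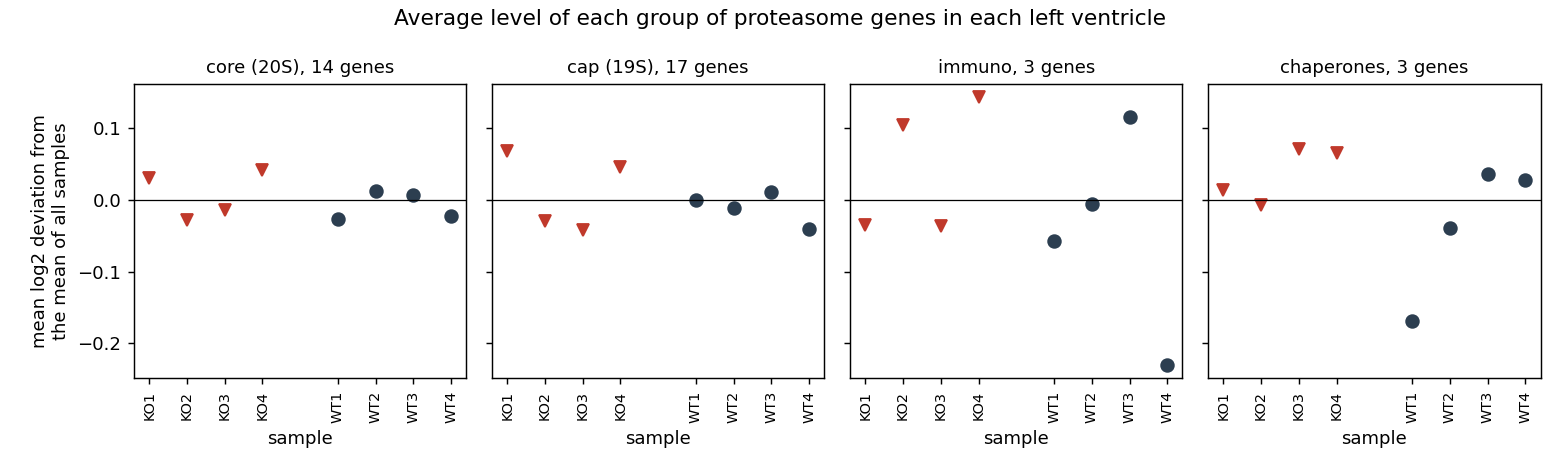
Mean log2 deviation from the mean of all samples for each class of proteasome genes, 1 point per ventricle, Nppb KO replicates left of wild-type replicates. Core and cap points lie between -0.04 and 0.07, while the immunoproteasome spans -0.23 to 0.14, and the genotypes overlap in every class.

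The immunoproteasome replaces the catalytic subunits of the core with Psmb9 (beta1i), Psmb10 (beta2i) and Psmb8 (beta5i), which are abundant in leukocytes, are induced by interferon and yield peptides suited to MHC class I. Psmb10 read 664, 640.1, 687 and 657 in Nppb KO ventricles, against 584, 724, 612 and 521 in wild-type ventricles. Its Nppb KO samples lay close together, while the wild-type samples spread below and above them. The difference was 0.13 (SE 0.08, limma adjusted p = 0.816), and it varied with single wild-type samples, being 0.21 without wild-type replicate 2 and 0.05 without wild-type replicate 4 (limma adjusted p = 0.424 and 0.966). Psmb9 read 90, 119, 90.9 and 121 in Nppb KO ventricles, against 95.3, 90.3, 117 and 79 in wild-type ventricles. Nppb KO replicates 2 and 4 and wild-type replicate 3 were high, the others low, and the difference of 0.14 had an SE of 0.15. It was 0.24 without wild-type replicate 3 and 0.05 without wild-type replicate 4 (limma adjusted p = 0.904 and 0.978). Psmb8 averaged 124 ± 7.54 in Nppb KO ventricles and 124 ± 9.93 in wild-type ventricles (SD, n = 4 each), a difference of 0.001 (SE 0.11).

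Averaged over the 3 genes, the immunoproteasome read -0.03, 0.10, -0.04 and 0.14 in Nppb KO ventricles, against -0.06, -0.005, 0.12 and -0.23 in wild-type ventricles. Wild-type replicate 4 was the lowest, with 0 of 3 genes above their own means, and Nppb KO replicates 2 and 4 and wild-type replicate 3 were the highest. In bulk tissue fewer cells of a type and less RNA per cell cannot be told apart. Leukocyte markers summed to between 5378 and 6272 normalized counts in Nppb KO ventricles and between 4766 and 6766 in wild-type ventricles. Of the 17 leukocyte markers 11 were tested, all 11 with estimates above 0 and 0 called, with a median of 0.14, while the 10 cardiomyocyte markers had 0 estimates above 0. The other 6, Cd3e, Cd3d, Cd79a, Ms4a1, S100a8 and Nkg7, which mark lymphocytes, granulocytes and natural killer cells, stayed at or below 18.6 in every sample. Estimates stood above 0 for 6 of 8 endothelial, 4 of 8 fibroblast and 0 of 5 erythroid markers. Over all tested genes the share above 0 was 50.9%. The part of leukocytes or other cells in the immunoproteasome values was not tested.

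**Figure D4:**
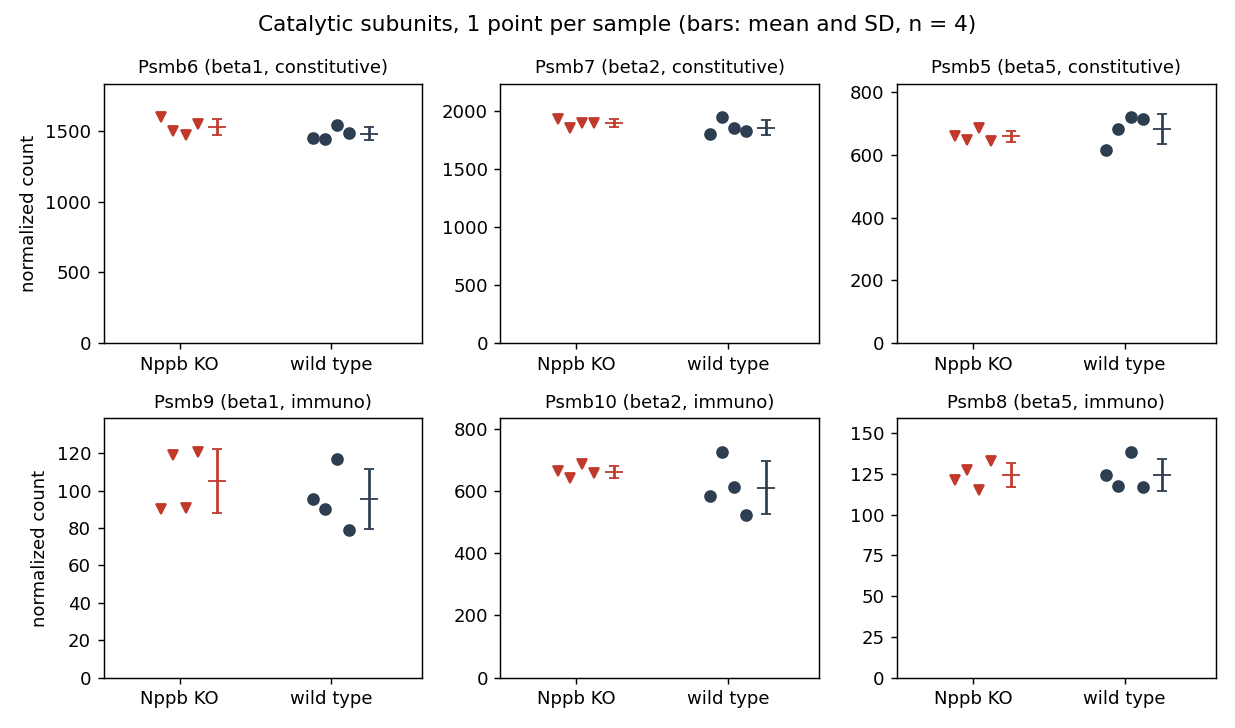
Normalized counts of the constitutive catalytic subunits (upper row) and of their immunoproteasome counterparts (lower row) in 4 Nppb KO (left, red) and 4 wild-type (right, dark) left ventricles, with mean and SD. The genotypes overlap for all 6 genes, and the wild-type samples of Psmb10 spread from 521 to 724.

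Compared per kb of coding transcript, the constitutive catalytic genes were far above their immunoproteasome counterparts in both genotypes, with the smallest gap at the beta2 site. Psmb9 made up 3.89% ± 0.624 of the beta1 pair in Nppb KO ventricles and 3.65% ± 0.510 in wild-type ventricles. Psmb8 made up 9.43% ± 0.743 of the beta5 pair in Nppb KO ventricles and 9.15% ± 0.797 in wild-type ventricles. Psmb10 made up 23.6% ± 0.465 of the beta2 pair in Nppb KO ventricles and 22.5% ± 1.90 in wild-type ventricles (SD, n = 4 each, for every share). The genotypes overlapped in all 3 shares. The shares are of RNA, and they depend on the length used: with all annotated exons merged, the Psmb10 share was 41.2% in Nppb KO and 39.6% in wild type, and the Psmb8 share 4.78% in Nppb KO and 4.63% in wild type.

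Psmb9 and Tap1, which encodes a subunit of the peptide pump that feeds MHC class I, are neighbours read in opposite directions from a common stretch of DNA. Their RefSeq promoter windows, from 250 bases before to 50 after each start in build GRCm38.p6, overlap by 275 bases (chr17:34187306-34187580). The window of Psmb9 is shown because most of it is also in the window of Tap1, on the reverse strand and up to 30 bases after the start (chr17:34187301-34187580), with a GC box (GGGCGG) and a CCAAT box (here as its reverse complement) in capitals.
Psmb9: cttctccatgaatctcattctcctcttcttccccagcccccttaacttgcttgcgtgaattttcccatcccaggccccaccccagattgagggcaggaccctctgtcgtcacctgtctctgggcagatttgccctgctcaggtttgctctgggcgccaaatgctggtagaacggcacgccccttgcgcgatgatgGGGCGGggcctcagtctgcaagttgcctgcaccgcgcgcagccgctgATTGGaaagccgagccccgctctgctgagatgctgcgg
Tap1 averaged 165 ± 15.5 in Nppb KO ventricles and 149.8 ± 16.3 in wild-type ventricles (SD, n = 4 each), a difference of 0.14 (SE 0.11) beside 0.14 for Psmb9. In Nppb KO ventricles both genes had the same order over the 4 samples. In wild-type ventricles the pair did not share an order, since Tap1 was lowest in replicate 3, where Psmb9 was highest. The 212 bases where exons of Psmb9 and Tap1 overlap on opposite strands could be split only by stranded counting, and the strand setting of the counter was not given in the sources used here.

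Of the 10 antigen processing and interferon genes 9 had estimates above 0 and 0 were called, with a median of 0.07. H2-K1, a classical MHC class I heavy chain, had the smallest unadjusted p and read 1220.0, 1401, 1243 and 1325 in Nppb KO ventricles, against 1179, 979, 1275 and 1021 in wild-type ventricles. Wild-type replicate 3 lay inside the Nppb KO range and the other wild-type samples lay below it. The difference was 0.23 (SE 0.08, limma unadjusted p = 0.0134, adjusted p = 0.730). B2m, the light chain of MHC class I, had a difference of 0.15 (SE 0.08, limma adjusted p = 0.797), with 1552, 1835, 1703 and 1869 in Nppb KO ventricles, against 1554, 1468, 1812 and 1443 in wild-type ventricles. For Psmb9, Psmb10 and B2m alike, wild-type replicate 4 was the lowest of all samples. The 5 adipocyte markers, all too low for the test, were each highest in wild-type replicate 4. Adipoq read 19.5 there and at most 6.87 in any other sample, and Plin1 18.4 and at most 9.31. Whether the tissue content of this sample bears on its low values was not tested.

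The 3 chaperones whose symbols begin with Psmd, Psmd5, Psmd9 and Psmd10, guide the assembly of the ATPase ring and leave the finished cap. All 3 had estimates above 0, with a median of 0.07 and 0 called. The median was 0.01 without wild-type replicate 1 and 0.12 without wild-type replicate 3. Psmd9 read 253, 217, 235 and 231 in Nppb KO ventricles, against 201, 213, 206 and 232 in wild-type ventricles. Nppb KO replicates 1 and 3 lay above every wild-type sample, and the difference was 0.13 (SE 0.08, limma adjusted p = 0.814). An antisense gene, Gm26745, overlaps 1849 exonic bases of Psmd9, so its count is uncertain in the same way as that of Psmb9. Of the 38 tested members, 11 overlapped exons of a gene on the opposite strand. Among them were Psmb8 (498 bases), Psmb7 (405), Psmc3ip (385), Psmd1 (252) and Psmc3 (215). On the same strand 2 members overlapped another gene, Psmb5 by 109 bases and Psmd1 by 301.

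Psmc3ip, Psma8 and Psmb11 were taken in by their symbols and belong to no ventricular proteasome class. Psmc3ip encodes a factor of meiotic recombination and no proteasome subunit. It read 212, 196, 199 and 198 in Nppb KO ventricles, against 191, 210.0, 204 and 187 in wild-type ventricles, with overlapping groups and a difference of 0.03 (SE 0.08). Psma8, an alpha subunit of testis, read 10.7, 11.6, 7.15 and 3.38 in Nppb KO ventricles, against 4.58, 6.87, 3.99 and 1.08 in wild-type ventricles. Psmb11, the catalytic subunit of the thymus, read at most 0.772 in Nppb KO ventricles and at most 2.17 in wild-type ventricles. Both were too low for the test, and the Psma8 groups overlapped.

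Subunits that stand in equal numbers in the particle had unequal RNA levels per kb, and their order depended on the length used. As normalized counts per kb of the longest coding transcript, averaged over the 8 samples, core genes ranged from 348 to 1889 with a median of 1022, and cap genes from 286 to 1345 with a median of 623. The median of all 13264 tested protein-coding genes was 92.6, and the core genes lay between the 83.9th and 97.1st percentile of these. Psmb6 was highest in the core at 1889 and Psmb7 next at 1615, with no overlap of their samples. Psmb2, Psmb4, Psmb3, Psma4, Psma7 and Psma1, from 1159 down to 984, each overlapped its neighbour in the order. Below them Psma6, Psmb5, Psmb1, Psma5, Psma3 and Psma2 formed steps without overlap, from 893 down to 348. These steps rest partly on the lengths: the longest coding transcript has 2911 bases for Psma2 and 1239 for Psma5. As normalized counts, Psma2 averaged 1013, and Psma5 at 602 was the lowest of the core. Which transcripts the ventricle uses was not tested.

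In the cap, Psmc3 at 1345, Psmd2 at 1147, Psmc1 at 922 and Psmc5 at 769 each stood clear of the next, except that Psmc5 overlapped Psmd4 at 681. From Psmd4 down to Psmd7 at 582 every gene overlapped its neighbour. Psmd14 at 432, Psmc4 at 397 and Psmd13 at 385 followed as an overlapping set, and Psmd11 at 286 was the lowest. Of the immunoproteasome genes, Psmb10 at 485 was close to Psma5 at 486, while Psmb8 at 76.4 and Psmb9 at 74.2 did not differ beyond their spread. The 3 chaperones lay between 63.6 and 86.1. With merged exons the highest core gene was Psmb2 and the lowest Psmb1, and the ratio of highest to lowest was 3.01 in place of 5.43. Psmc3 and Psmd11 were the ends of the cap with either length, and their ratio was 7.36 in place of 4.70.

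**Figure D5:**
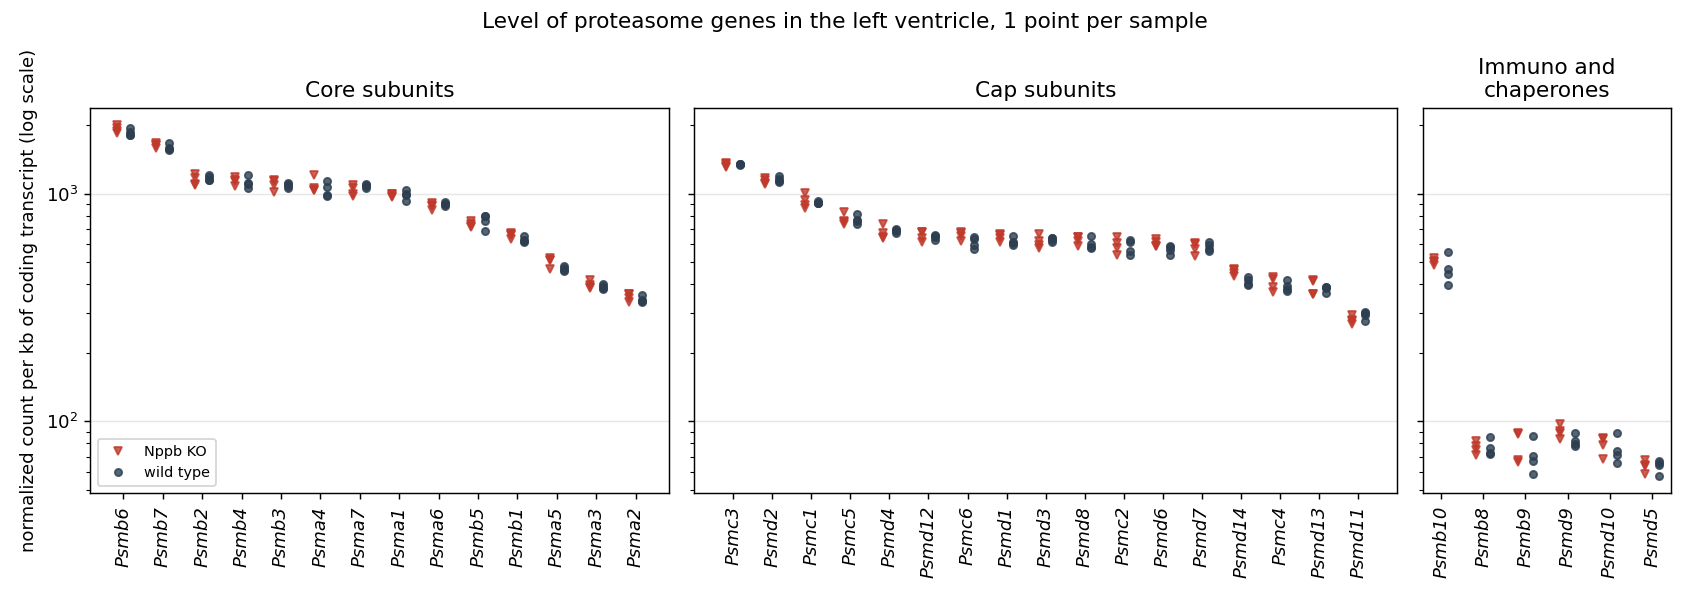
Normalized count per kb of the longest coding transcript (log axis) of core, cap, immunoproteasome and chaperone genes, 1 point per ventricle, Nppb KO (red triangles) left of wild type (dark circles). Psmb6 and Psmc3 lead the core and the cap at 1889 and 1345, and Psmb8 and Psmb9 lie near the chaperones at 76.4 and 74.2.

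Several subunits have pseudogenes that are listed in the table with counts of their own. Pseudogenes that hold at least one 50-base stretch of a member's exons and are listed in the table numbered 17, for 12 members. Of these, Gm6884, Psmb5-ps, Gm13260 and Gm14048 were too low for the test. Of the tested copies 0 were called, against 0.0121% of all tested genes. For 6 members the copies held over 10% of the sum of gene and copies. The extreme was Psma5, whose copies Gm12989 and Gm8394 averaged 624 ± 45.1 in Nppb KO ventricles and 565 ± 24.7 in wild-type ventricles (SD, n = 4 each), 49.7% of the sum. Gene and copies together gave Psma5 1247 ± 71.2 in Nppb KO ventricles and 1145 ± 38.4 in wild-type ventricles, a difference of 0.12 beside 0.10 for the gene alone. For Psma3 the copies held 42.2% of the sum, for Psmb3 34.5%, for Psma4 23.3%, for Psmd2 20.5% and for Psmc1 16.7%. The levels per kb of these 6 genes are therefore uncertain. Pseudogenes without counts of their own could not enter these sums. Among them Gm3375 holds 420 of the 50-base stretches of Psmb5, and Psmb5 shares 12.7% of its read-length stretches with it. The level of Psmb5 and the Psmb8 share of the beta5 pair are thus uncertain too, and the size of this effect was not tested. For Psmd14 the copy Gm12096 held 4.67%, with a difference of -0.33 (SE 0.21). The sums of 698.8 to 741 in Nppb KO ventricles and 646 to 696.6 in wild-type ventricles narrowly did not overlap. Their difference was 0.11 beside 0.14 for the gene alone.

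The transcription factor Nfe2l1 (Nrf1) raises proteasome subunit genes together when proteasome activity falls, and Nfe2l2 (Nrf2) does so under oxidative stress. Both bind antioxidant response elements. Nfe2l1 read 8322, 7887, 7927 and 7812 in Nppb KO ventricles, against 8369.6, 8014, 8684 and 8718 in wild-type ventricles. The groups overlapped, and the difference was -0.08 (SE 0.04, limma unadjusted p = 0.0772, adjusted p = 0.801). Nfe2l2 had a difference of -0.01 (SE 0.06). Of the 4 regulators 0 were called. RNA levels do not report the cleavage and nuclear entry by which Nfe2l1 is controlled.

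RefSeq promoter windows in build GRCm38.p6 were at hand for 32 of the 38 tested members, in 34 windows. The core of the antioxidant response element, searched as TGACNNNGC on both strands, stood in 5 of the 34 windows (14.7%), against 12.4% of all 32851 windows. These shares are close, and a match does not show that Nfe2l1 acts on the gene. The 5 matches are shown with their flanks, with the match in capitals, as the letters above or as their reverse complement.
Psmb5: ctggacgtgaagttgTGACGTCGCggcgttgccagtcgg
Psmb6: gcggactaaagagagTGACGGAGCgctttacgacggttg
Psmc6: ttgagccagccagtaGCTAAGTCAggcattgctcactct
Psmd12: tctGCTGTGTCAcatttgcccccctca
Psmd9: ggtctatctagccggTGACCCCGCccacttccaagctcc
They lie at chr14:54618019-54618057 on the reverse strand (Psmb5), and on the forward strand at chr11:70525333-70525371 (Psmb6), chr14:45329582-45329620 (Psmc6), chr11:107479278-107479304 (Psmd12) and chr5:123228144-123228182 (Psmd9). Counted from the start site at 0, the matches begin at -47 in Psmb5, -9 in Psmb6, -227 in Psmc6, -247 in Psmd12 and -31 in Psmd9. The differences of these 5 genes between the genotypes were -0.05, 0.05, 0.10, 0.01 and 0.13 in the same order, none called.

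The ETS core, searched as TTCCGG on both strands, stood in 17 of the 34 windows (50%), against 14.9% of all windows, and the GC box in 19 (55.9%), against 35.7%. In the 27 windows of core and cap genes, each of these motifs stood in 15 (55.6%). The windows used for comparison were not limited to tested genes, so whether these shares are particular to proteasome genes was not tested. The ETS match nearest the start site is shown, in capitals, for 4 of the 16 genes that hold one, chosen after values were seen.
Psma2: tgtgttccgactTTCCGGgtaaagatggca
Psma5: cagcaaacctagTTCCGGctgccaccgagc
Psmc6: gaggcgggccagCCGGAAggggcggagcca
Psmd11: ccgggtgtgtgtTTCCGGcgtcggcggccg
These are chr13:14613251-14613280, chr3:108256760-108256789, chr14:45329712-45329741 and chr11:80428607-80428636, all on the forward strand, with the match at 21, -154, -100 and 4 from the start site. The CCAAT box stood in 38.2% of the members' windows, against 37.4% of all windows, and TATAAA in 11.8%, against 13.6%. The core of the interferon-stimulated response element stood in 8.82% of the members' windows, against 3.44% of all windows, in those of Psmb3, Psmd4 and Psmd9. The STAT palindrome TTCNNNGAA stood in those of Psmb8 and Psmd2 (5.88%, against 8.30% of all windows). Each of the 7 motifs was searched on both strands, and a match of TTCCGG can lie within one of TTCNNNGAA. These are matches of letters, and no measurement of binding was made.

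Other genes of the pathway, 49 in 9 lists, held 0 called genes as well, with 29 estimates above 0 and a median of 0.02. At an unadjusted p under 0.05 stood H2-K1 and Ubqln2, which is 2 of 49, beside 6.26% of all tested genes. Ubqln2, a shuttle that carries ubiquitinated proteins to the proteasome, read 149, 147, 151 and 133 in Nppb KO ventricles, against 179, 154, 168 and 202 in wild-type ventricles. The groups did not overlap, and the difference was -0.27 (SE 0.10, limma unadjusted p = 0.0181, adjusted p = 0.753). Of the 6 shuttles 1 had an estimate above 0 and 5 below.

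The activators that bind the core in place of the cap, Psme1 to Psme4, and the inhibitor Psmf1 had estimates from -0.01 to 0.07. Psme4, a nuclear activator for proteins without ubiquitin, was the most abundant of them, at 1538 normalized counts per kb, which is above every cap gene. It read 10637, 9215, 9744 and 11199 in Nppb KO ventricles, against 9009.5, 11873, 9398 and 8812 in wild-type ventricles, with overlapping groups and a difference of 0.07 (SE 0.10). Of the 6 core assembly chaperones and import factors with other names, 4 had estimates above 0, and Akirin2, which carries proteasomes into the nucleus, had a difference of -0.07 (SE 0.07). Sem1 and Adrm1, cap subunits under other names, had differences of 0.03 (SE 0.05) and -0.02 (SE 0.05).

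Among the 4 deubiquitinases and ligases that ride on the proteasome, Ube3c, a ligase that extends chains on stalled substrates, read 1413, 1401, 1376 and 1364 in Nppb KO ventricles, against 1306, 1353, 1313 and 1296 in wild-type ventricles. Its groups did not overlap, and the difference was 0.08 (SE 0.04, limma adjusted p = 0.808). The unfoldase Vcp and its 5 cofactors had 4 of 6 estimates above 0, with Ufd1, a cofactor that binds ubiquitin, at 0.06 (SE 0.06). Of the 6 ubiquitin genes and activating enzymes 2 were above 0, one of them Rps27a, which encodes ubiquitin fused to a ribosomal protein, at 0.09 (SE 0.05). Over all 9 lists, 4 of 49 genes did not overlap between the genotypes, Ube3c and Erap1, a peptide trimmer of antigen processing, with the Nppb KO samples higher, and Ubqln2 and Ubqln4, another shuttle, with the Nppb KO samples lower, against 3.76% of all tested genes.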

How the data were processed

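RNA of the left ventricle was measured in 4 Nppb KO and 4 wild-type mice. Libraries were made with a stranded kit from 900 ng of total RNA and read in pairs of 125 bp, per the labels' protocols. The authors' main deposited table holds normalized counts (a signal at or above 0) for each gene and sample, and their second deposited table holds their comparison of the genotypes, as a log2 ratio of wild type to knockout with its p-value and adjusted p-value. STAR, DESeq2 and build mm10 are named in the submitters' processing notes, per the labels without versions. The annotation, the counter, and how strand and multiply aligned reads were treated were not given in the sources used here. All values of the first table came out as whole reads, within 0.01, once divided by their step (100% in each sample), which gave read totals and size factors.

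The test was limma 3.58.1 (R 4.3.3; trend and robust options on) on log2(normalized count + 1), for genes with a mean of at least 10, with Benjamini-Hochberg adjustment over 16590 genes and a threshold of 0.05. A log2(value + 1) scale understates changes of low genes. EdgeR 4.0.16 and DESeq2 1.42.0 were run on the recovered reads as alternatives. The scripts were tested on simulated counts. Each library is 1 animal, so a p-value rests on the variation among 8 ventricles. No 2 libraries of the same genotype were copies of each other (chi-square of at least 4.87 per degree of freedom for each of the 12 pairs). Lengths and coordinates came from GENCODE M21, and 40254 gene IDs matched. Promoter windows came from RefSeq.

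The members and the lists were chosen with earlier results of these data known. Named members were the catalytic subunits, the smallest p of each class, those without overlap between genotypes, the highest and lowest level per kb of each group, and the genes taken in by symbol alone. Named pathway genes were the smallest p of each list, Nfe2l1, Nfe2l2, Tap1 and B2m. Motifs, merged exon lengths, pseudogene copies and other named genes were chosen after values were seen. Paaf1 was not analysed here.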

Additional observations from a re-analysis of the deposited data

Results flagged for a closer look

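Of 76 groups of 4 samples, made of 38 proteasome genes in each genotype, 1 held a sample far from the other 3, where chance gives about 1 in 20. It was Psma4, an alpha subunit, in Nppb KO ventricles: replicate 4 read 1410.2 normalized counts and the others 1209 to 1236, a gap of 0.867 of the range. Psma4 averaged 1267 ± 96.1 in Nppb KO ventricles and 1214 ± 89.6 in wild-type ventricles (SD, n = 4 each), with a difference of 0.06 (SE 0.06). The cause was not tested.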

How the results depend on the processing

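Of 19 alternatives, 8 left out a sample. The number of proteasome genes called was 0 in all of them, and the number of estimates above 0 ranged from 20 to 28 without single samples, beside 26 of 38. Over all genes, 2 were called, against 23 by DESeq2, 5 without a filter on low values and 1 to 6 without single samples (6 without wild-type replicate 2). Psmb8 changed sign with TMM factors (-0.0027), with recomputed size factors (-0.0028) and without single samples (from -0.0322 to 0.0527), with adjusted p-values of at least 0.978. Direction was followed for the 16 tested members named by rule, which leave out Psma4, Psma7, Psmd2 and Psmd4. Of these 16, all but Psmb8 kept their direction and all stayed above the threshold wherever an adjusted p-value was given. Psmd14 ranged from 0.12 to 0.16 over the 19 alternatives, with adjusted p-values from 0.504 to 0.956 and unadjusted p-values from 0.0148 to 0.0605. Summed with its pseudogene copy, which was not among the 19 and was not tested, it stood at 0.11. The medians of the core and the cap crossed 0 without single samples, ranging from -0.002 to 0.04 and from -0.007 to 0.04. The immunoproteasome shares depended on length: without any correction for length they were 6.42% in Nppb KO and 6.03% in wild type at beta1, 25.9% and 24.7% at beta2, and 15.9% and 15.4% at beta5; with merged exons 3.39% and 3.18%, 41.2% and 39.6%, and 4.78% and 4.63%. Without single samples the coding-length shares at beta1 ranged from 3.70% to 4.12% in Nppb KO and from 3.44% to 3.86% in wild type. The replicate block called 3 genes and 0 members. Same-numbered samples did not deviate together over all tested genes (correlations from -0.07 to 0.03). These values gave no sign of pairing by number, but cannot show whether samples shared a litter or a preparation. Counts of 73 reads and more per library limit precision for Psmb8, Psmb9 and Psmd10.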
